A study of Mus musculus with 6 samples.

Results

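The genes described here are the 10 that form the JAK-STAT5 core and its best known outputs: the transcription factors Stat5a and Stat5b, the kinases Jak1 and Jak2, the feedback inhibitors Socs1, Socs2, Socs3 and Cish, and the survival kinases Pim1 and Pim2. They were taken by gene symbol from the deposited count table, which lists 55487 genes, and all 10 were found and had enough counts to test among 14481 tested genes. The tested libraries were 3 from acute lymphoblastic leukaemia with miR-182 KO genotype (KO, replicates 2, 3 and 4), set against 3 with WT genotype (WT, replicates 1, 3 and 4). In both genotypes bone marrow cells had been transplanted into mice, which per the labels were 6 to 8 weeks old, GFP in blood was followed from 3 weeks on, and GFP and B220 positive marrow cells were sorted, with Day 0 given as the time. The series describes a B-lineage leukaemia induced by BCR-ABL and a T-lineage one induced by Notch, and the sort on B220, a B-lineage surface form of CD45, stands on every library. The sort text is the same on all 6 libraries and names 182WT and 182NC cells only. With these labels, genotype cannot be told apart from differences between single leukaemias. The labels do not say whether libraries of a genotype came from separate leukaemias, so p-values measure only the spread between these libraries, which may be technical.

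JAK kinases sit on the inner tails of cytokine receptors and become active when a ligand brings receptors together. They phosphorylate STAT5, which then moves to the nucleus as a dimer and switches on genes that include those for CIS, SOCS2 and the PIM kinases. CIS and the SOCS proteins bind receptors or JAKs and damp the signal, and SOCS proteins also carry a box that recruits a ubiquitin ligase. In B-cell precursors this pathway works downstream of the interleukin-7 receptor, and in BCR-ABL leukaemia STAT5 is kept active by the fusion kinase. RNA levels do not show STAT5 phosphorylation, so none of the values below measures pathway activity.

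Total counts ran from 20527487 to 29237035 in KO libraries and from 17704382 to 23311040 in WT libraries, and the lowest count of any of the 10 genes in a library was 270. Mir182, the precursor gene, had 0 counts in all 6 libraries, which says nothing of the mature microRNA, so genotype rests on the labels alone. B-lineage markers were present in every library, and their summed level over 11 genes was 6303 to 7237 CPM (counts per 1000000, scaled by TMM factors) in KO libraries and 6321 to 6857 CPM in WT libraries. The libraries also differed in markers of other cells. The summed level of 17 neutrophil markers was 1437, 3406 and 7247 CPM in KO replicates 2, 3 and 4, against 42448.5, 17432 and 30583 CPM in WT replicates 1, 3 and 4. All 17 were lower in KO, as were 9 of 12 monocyte and macrophage markers (summed level 276 to 687 CPM in KO, 1469 to 4469 CPM in WT), 5 of 7 tested T cell markers (114 to 151 CPM in KO, 164 to 219 CPM in WT) and 1 of 3 tested NK cell markers (3.58 to 5.18 CPM in KO, 45.5 to 79.0 CPM in WT). By the edgeR test used below (adjusted p below 0.05), 28.5% of all tested genes were called lower in KO. The 1 of 3 NK cell markers is near that share. None of the 5 tested erythroid markers passed (summed level 96.4 to 123 CPM in KO, 24.7 to 241 CPM in WT), and no marker of these lists was at 0 in all libraries. Most of the NK cell sum in WT was Klrb1c, with a mean of 1.93 CPM in KO and 49.3 CPM in WT. Most of the T cell sum was Cd2 (mean 120 CPM in KO and 117 CPM in WT, not called) and Lck (11.3 and 64.8 CPM). These sums rest on few genes and do not by themselves show the content of T or NK cells. Transcripts of the Y chromosome also went with genotype. Ddx3y was at 2.67, 3.87 and 6.00 CPM and Eif2s3y at 2.15, 3.23 and 5.06 CPM in KO, against 0 CPM for Ddx3y and at most 0.061 CPM for Eif2s3y in WT. Xist, which is made from the inactive X chromosome of female cells, was at 1095 to 1222 CPM in KO and at 852 to 937 CPM in WT. The source of the Y-linked RNA cannot be told apart from genotype here. In RNA from bulk cells, fewer cells of a type and less RNA per cell cannot be told apart.

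The 10 genes did not all move in a single direction. Socs2 and Pim2 were higher in KO, Stat5b, Jak2 and Socs1 were lower, and Stat5a, Jak1, Socs3, Cish and Pim1 did not pass the test. Thus 2 of the 10 genes were called higher and 3 lower (edgeR quasi-likelihood test, adjusted p below 0.05). Among all tested genes 52.5% were called, 23.9% higher and 28.5% lower, so the members' counts are near the background. The same 5 genes were those whose KO libraries all lay above (2 genes) or all below (3 genes) the WT libraries, where 64% of tested genes did not overlap, 30.8% with KO above and 33.2% with KO below. The median log2 fold change of the 10 genes was -0.076, beside -0.0015 over all tested genes.

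**Figure D1:**
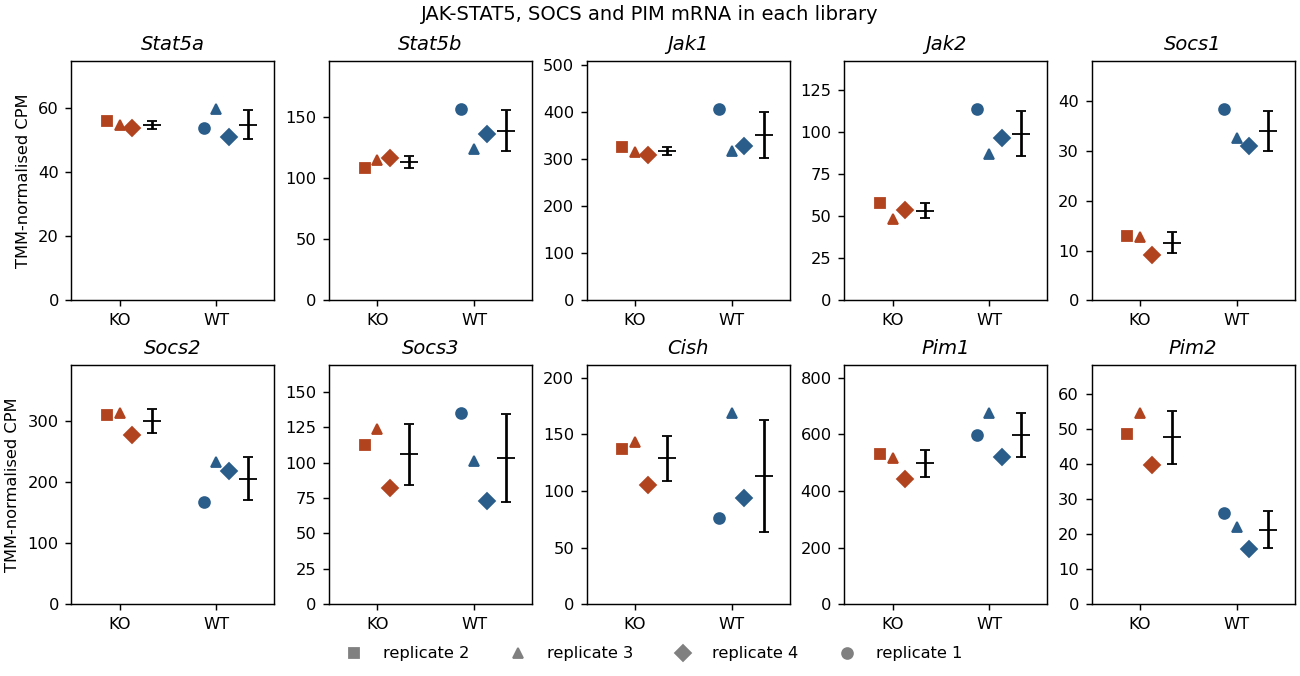
Level of each of the 10 genes in TMM-normalised CPM (y axis, from 0) in the 3 KO and 3 WT libraries. Symbols mark replicate numbers, and black bars give mean and SD. The KO and WT points are apart for Stat5b, Jak2, Socs1, Socs2 and Pim2 and overlap for the other 5 genes.

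Of the STAT5 genes, which encode a pair of closely related transcription factors, Stat5a did not pass and Stat5b was slightly lower in KO. Stat5a (ENSMUSG00000004043, chromosome 11 from 100859351 to 100885169, plus strand, GRCm38) stood at 55.9, 54.6 and 53.7 CPM in KO replicates 2, 3 and 4, and at 53.7, 59.7 and 51.0 CPM in WT replicates 1, 3 and 4. The KO values lay inside the WT range, and the log2 fold change was -0.0030 (SE 0.081, edgeR adjusted p = 0.978). Stat5b (ENSMUSG00000020919, chromosome 11 from 100780731 to 100850724, minus strand) stood at 108, 115 and 116 CPM in KO, and at 156, 124 and 136 CPM in WT. Every KO library was below every WT library, with a log2 fold change of -0.29 (SE 0.098, edgeR adjusted p = 0.0392), and the highest KO and lowest WT values were 116 and 124 CPM. That call did not hold when any 1 of the libraries KO replicate 2 (adjusted p = 0.171), KO replicate 3 (0.101), KO replicate 4 (0.0896), WT replicate 1 (0.0761) or WT replicate 4 (0.0867) was left out, nor with upper-quartile factors (0.0654), and over 16 alternatives the adjusted p ran from 0.00395 to 0.993.

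Genes around Stat5b were lower in KO by their median too. The 10 nearest genes of at least 8 CPM had a median log2 fold change of -0.31 for Stat5b, with 5 called lower and 1 higher, and of -0.36 for Stat5a, with 6 called lower and 1 higher. Among all genes of at least 8 CPM 29.2% were called lower and 27.2% higher. Stat5a and Stat5b lie close together, so their sets of nearest genes are not separate. The part of this neighbourhood in the Stat5b result was not tested.

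Counting limits the comparison of these neighbours. Of the 50-base windows of the longest Stat5a coding transcript 15.8% occur unchanged in that of Stat5b, so reads from shared stretches could have been split or dropped. The gene body of Stat5a also overlaps that of Stat3 on the other strand, and whether the counting used strand is not given in the sources used here. Stat3 itself, at 101, 124 and 104 CPM in KO and 211, 147 and 166 CPM in WT, fell by 0.68 on the log2 scale (SE 0.15).

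The Janus kinases differed from each other. Jak1 (ENSMUSG00000028530, chromosome 4 from 101152367 to 101265282, minus strand), which pairs with receptors of the interleukin-7, interferon and interleukin-6 families, was at 325, 314 and 309 CPM in KO and at 406, 317 and 329 CPM in WT. The groups overlapped and the log2 fold change of -0.15 (SE 0.11) did not pass (edgeR adjusted p = 0.275). Jak2 (ENSMUSG00000024789, chromosome 19 from 29251828 to 29313080, plus strand), which serves the receptors for erythropoietin, thrombopoietin, interleukin-3 and GM-CSF, was at 57.9, 48.8 and 53.6 CPM in KO and at 114, 87.2 and 96.9 CPM in WT. All KO libraries were well below all WT libraries, and Jak2 fell by 0.90 on the log2 scale (SE 0.12, edgeR adjusted p = 0.00131), a level 1.86-fold lower in KO.

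Jak2 lies on a chromosome whose genes were lower in KO as a whole. Among the 368 genes of chromosome 19 that averaged 8 CPM or more, the median log2 fold change was -0.50, with 68.8% called lower and 2.17% higher in KO. Over the 9652 such genes of all chromosomes the median was 0.025, with 29.2% called lower and 27.2% higher. The 10 such genes nearest to Jak2 had a median of -0.73, and 8 of them were called lower and 1 higher. Jak2 was 0.40 below the chromosome's median on the log2 scale, with 19.6% of the chromosome's genes lower still, against 11.5% of the genes on other chromosomes. The part of the chromosome-wide difference in the Jak2 result was not tested. The chromosomes of the other 9 genes had medians from 0.017 to 0.088.

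**Figure D2:**
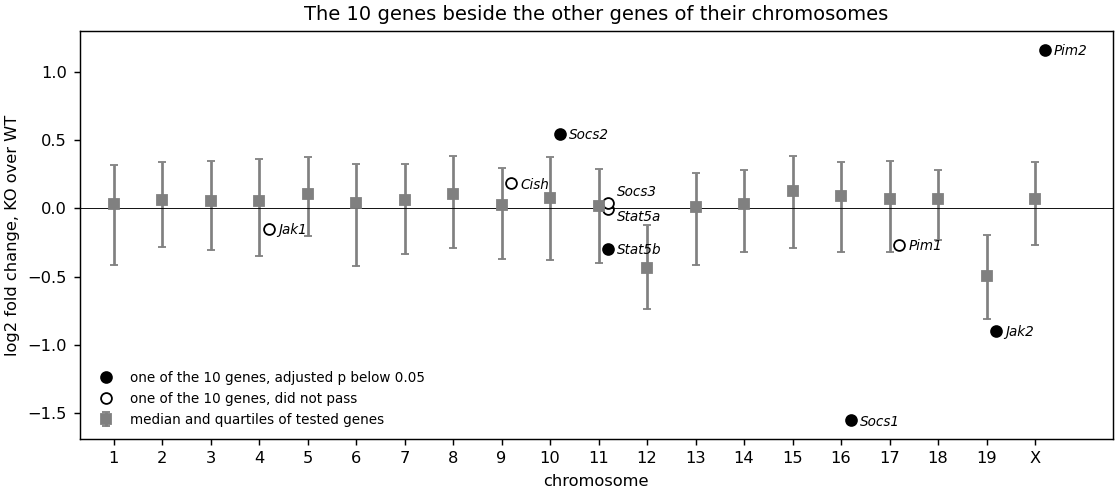
Log2 fold change of KO over WT (y axis) by chromosome (x axis). Grey squares and bars are the median and quartiles of genes averaging 8 CPM or more, filled circles are those of the 10 genes that passed and open circles those that did not. Chromosomes 12 and 19 have medians of -0.44 and -0.50, and Jak2 lies below the lower quartile of chromosome 19.

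Of the 4 feedback inhibitors Socs1 was lower and Socs2 higher in KO, and Socs3 and Cish did not pass. Socs1 (ENSMUSG00000038037, chromosome 16 from 10782240 to 10785536, minus strand), which blocks the JAK active site and is induced by interferon as well as by STAT5, was at 12.9, 12.7 and 9.17 CPM in KO and at 38.4, 32.6 and 30.9 CPM in WT. The highest KO library was far below the lowest WT library. Socs1 fell by 1.55 on the log2 scale (SE 0.16, edgeR adjusted p = 0.000522), a level 2.93-fold lower in KO and the largest change among the 10 genes. Its 10 nearest genes of at least 8 CPM had a median of -0.0061.

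Socs2 (ENSMUSG00000020027, chromosome 10 from 95385362 to 95417180, minus strand), an inhibitor of growth hormone signalling and a STAT5 target, was at 309, 313 and 276 CPM in KO and at 166, 231 and 218 CPM in WT. All KO libraries were above all WT libraries. Socs2 rose by 0.54 on the log2 scale (SE 0.13, edgeR adjusted p = 0.0123), a level 1.46-fold higher in KO.

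Socs3 (ENSMUSG00000053113, chromosome 11 from 117966079 to 117970047, minus strand), which inhibits JAKs on gp130 and G-CSF receptors, was at 112, 124 and 82.1 CPM in KO and at 135, 101 and 73.1 CPM in WT. The groups overlapped, and the log2 fold change of 0.040 (SE 0.24) did not pass (edgeR adjusted p = 0.899). The coefficient of variation was 20.3% in KO and 30.3% in WT, so a small difference could not be resolved with these libraries.

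Cish (ENSMUSG00000032578, chromosome 9 from 107296026 to 107302784, plus strand) encodes CIS, which competes with STAT5 for its docking sites on receptors. It was at 137, 143 and 106 CPM in KO, and at 76.1, 169 and 93.9 CPM in WT. WT replicate 3 stood above all other libraries while the other WT libraries were below all KO libraries, and the log2 fold change of 0.19 (SE 0.29) did not pass (edgeR adjusted p = 0.614). Without WT replicate 3, which also had the lowest neutrophil marker level of the WT libraries, Cish passed as higher in KO at 0.60 (adjusted p = 0.0169), without WT replicate 1 its log2 fold change was -0.037, and over 16 alternatives the adjusted p ran from 0.0169 to 0.918. Its coefficient of variation was 15.8% in KO and 43.8% in WT, the widest of the 10 genes in WT, and that of Stat5a, the narrowest in both genotypes, was 2.01% in KO and 8.12% in WT.

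Cish is a textbook STAT5 target, and part of its promoter is printed here because it holds the motif TTCNNNGAA, in capitals, more than once. STAT dimers bind such palindromes, and the motif reads the same on both strands. The stretch is on the plus strand of GRCm38.p6 from RefSeq, chr9:107296619-107296688, and ends 30 bases after the start of transcription. The Socs3 promoter holds a single match, in the stretch shown from the minus strand at chr11:117969472-117969560.
Cish: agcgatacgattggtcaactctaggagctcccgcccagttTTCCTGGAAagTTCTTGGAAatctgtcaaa
Socs3: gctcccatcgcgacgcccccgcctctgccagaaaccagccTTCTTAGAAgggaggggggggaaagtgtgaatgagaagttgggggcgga
In Cish the matches begin at bases 1 and 12 counted from the start site, and in Socs3 the match begins at base -154. Of the 32851 windows of 300 bases in the promoter table (250 before to 50 after a start) 8.3% hold at least 1 match and 0.457% hold at least 2. A RefSeq promoter was matched for 9 of the 10 genes, Socs2 being the other, and the windows of Stat5a, Stat5b, Jak1, Jak2, Socs1, Pim1 and Pim2 held 0 matches. Neither gene with a match passed in the comparison of genotypes, and a match is letters in a window, not a bound site.

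Cish was also the only one of the 10 genes with a seed match to the deleted microRNA in its longest annotated 3′ UTR (GENCODE M21). The mature microRNA is shown with its seed, bases 2 to 8, in capitals, and the stretch of Cish, chr9:107302264-107302290 on the plus strand of GRCm38, with the matching bases in capitals.
mmu-miR-182-5p: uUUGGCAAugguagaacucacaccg
Cish: gagggcagtaacTTGCCAAgaggagcc
Among tested genes with an annotated 3′ UTR 11.9% hold such a match, so 1 in 10 genes is near the background, and Cish did not pass in either direction.

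The PIM kinases, serine/threonine kinases that are active as soon as they are made and favour survival and growth, also differed from each other. Pim1 (ENSMUSG00000024014, chromosome 17 from 29490753 to 29496112, plus strand) was at 531, 517 and 443 CPM in KO and at 596, 677 and 519 CPM in WT. The highest KO library exceeded the lowest WT library, and the log2 fold change of -0.27 (SE 0.12) did not pass (edgeR adjusted p = 0.107). With the replicate number as a block it did (-0.31, edgeR adjusted p = 0.0379). That fit draws the genotype difference only from the replicate numbers found in both genotypes. Pim2 (ENSMUSG00000031155, chromosome X from 7878262 to 7883432, plus strand) was at 48.5, 54.6 and 39.6 CPM in KO and at 26.1, 21.9 and 15.8 CPM in WT. All KO libraries were above all WT libraries, and Pim2 rose by 1.16 on the log2 scale (SE 0.20, edgeR adjusted p = 0.00336), a level 2.24-fold higher in KO. The 297 genes of the X chromosome with at least 8 CPM had a median of 0.067.

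**Figure D3:**
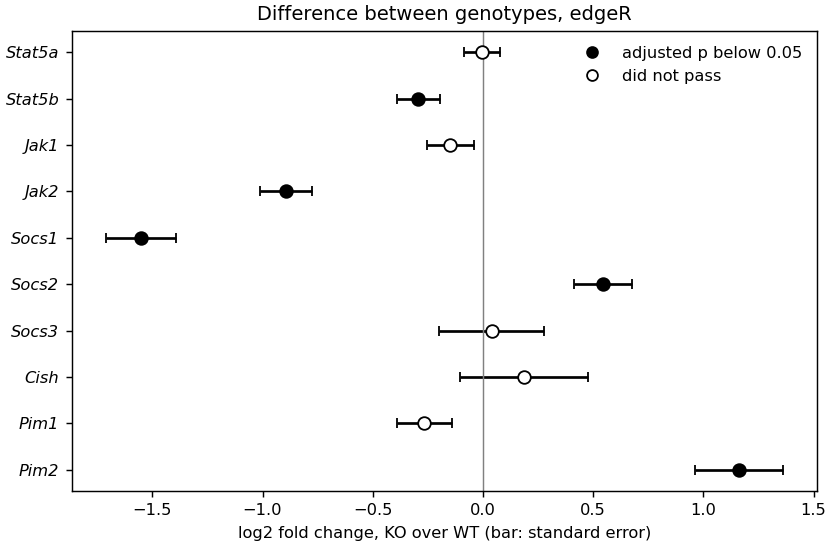
Log2 fold change of KO over WT (x axis) for each of the 10 genes, with its standard error. Filled circles passed at an edgeR adjusted p below 0.05. The values run from -1.55 for Socs1 to 1.16 for Pim2.

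The authors' deposited table gives the same directions except for Stat5a. In the authors' deposited table the log2 fold change is -1.53 for Socs1, -0.88 for Jak2, -0.27 for Stat5b (FDR 0.0439), 0.56 for Socs2 (FDR 0.000628) and 1.18 for Pim2. For Stat5a the authors' deposited table has 0.015 (FDR 0.932). The sign of the Stat5a value turned in 9 of 16 alternatives, among them other scaling and left-out libraries, and Stat5a passed in no alternative.

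Compared per length of exon, Pim1 was the most abundant of the 10 in both genotypes. It averaged 184 ± 17.6 CPM per kb in KO and 221 ± 29.2 CPM per kb in WT (SD, n = 3 each), and its mean over the libraries was above that of 97.7% of tested genes. In KO the order of levels per kb after Pim1 was Socs2 (70.6), Jak1 (64.5), Cish (47.0), Socs3 (41.6), Pim2 (23.3), Stat5b (22.3), Stat5a (14.1), Jak2 (10.8) and Socs1 (3.99). In that order the ranges of neighbours overlapped for Socs2 and Jak1, for Cish and Socs3, and for Pim2 and Stat5b. In WT the order after Pim1 was Jak1 (71.5), Socs2 (48.4), Cish (41.2), Socs3 (40.4), Stat5b (27.4), Jak2 (20.1), Stat5a (14.1), Socs1 (11.7) and Pim2 (10.4). There Jak1, Jak2 and Pim1 stood apart from the gene after them, as did Stat5b, and all other neighbours overlapped. Pim2 was thus sixth in KO and last in WT, and Jak2 was ninth in KO and above Stat5a in WT.

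Ratios of related genes within a library do not depend on how libraries are scaled, and 5 were compared. Jak2 per kb was 0.176, 0.154 and 0.172 of Jak1 in KO and 0.278, 0.273 and 0.292 of Jak1 in WT. Pim1 per kb was 8.30, 7.18 and 8.48 times Pim2 in KO and 17.3, 23.4 and 24.9 times Pim2 in WT. Socs3 per kb was 9.94, 11.1 and 10.2 times Socs1 in KO and 4.02, 3.53 and 2.70 times Socs1 in WT. In these 3 ratios the genotypes did not overlap, and each reached p = 0.1 in a two-sided exact permutation test, the smallest that 3 against 3 libraries allow (0.167 after adjustment over the 5 ratios). Stat5a over Stat5b averaged 0.631 ± 0.0389 in KO and 0.522 ± 0.0957 in WT (exact permutation p = 0.3, SD, n = 3 each). Cish over Socs2 averaged 0.663 ± 0.0627 in KO and 0.836 ± 0.257 in WT (exact permutation p = 0.5). For both, the genotypes overlapped.

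**Figure D4:**
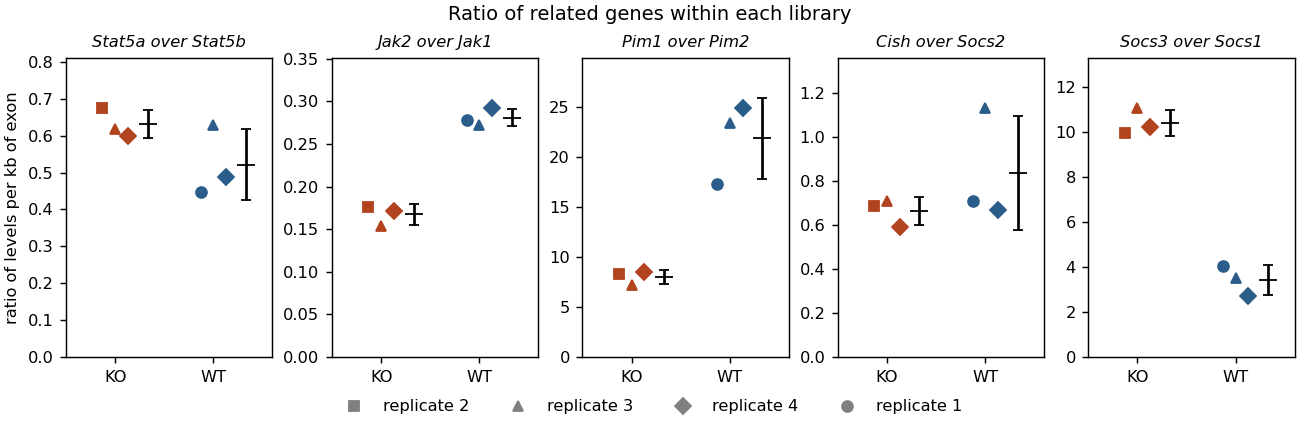
Ratio of levels per kb of exon (y axis, from 0) for 5 pairs of related genes in the 3 KO and 3 WT libraries, with mean and SD in black. The genotypes are apart for Jak2 over Jak1, Pim1 over Pim2 and Socs3 over Socs1.

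Levels per kb were also summed by role, as a description with no test. The STAT5 pair summed to 35.7, 36.7 and 36.8 CPM per kb in KO and to 44.7, 39.8 and 40.02 CPM per kb in WT. The JAK pair summed to 78.0, 73.9 and 73.9 CPM per kb in KO and to 105.9, 82.3 and 86.6 CPM per kb in WT. For both sums every KO library was below every WT library. The 4 feedback genes together had 163 ± 21.2 CPM per kb in KO and 142 ± 22.4 CPM per kb in WT (SD, n = 3 each), and the ranges overlapped. Within that sum Socs1 made up 2.43 ± 0.160% in KO and 8.37 ± 1.6% in WT, and Socs2 43.5 ± 2.96% in KO and 34.4 ± 6.05% in WT. The PIM pair summed to 208 ± 20.8 CPM per kb in KO and 232 ± 30.7 CPM per kb in WT, with overlapping ranges, and of it Pim2 was 11.2 ± 0.914% in KO and 4.47 ± 0.867% in WT.

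Neutrophil marker levels moved with genotype, and WT libraries that differed in them also differed in several of the 10 genes. WT replicate 1, with the highest neutrophil sum, had the lowest Socs2 and Cish and the highest Stat5b, Jak1, Jak2, Socs1, Socs3 and Pim2 of the WT libraries. WT replicate 3, with the lowest sum, had the highest Stat5a, Socs2, Cish and Pim1. Among KO libraries, replicate 4, with the highest neutrophil sum, had the highest Stat5b and the lowest value of every other gene except Jak2. For Jak1, Socs1, Socs3 and Pim2 that is the opposite end from WT replicate 1. With 3 libraries a group some library is always highest or lowest, so these orders alone show no link. With the mean log2 level of the neutrophil markers as a covariate, of whose variance genotype took 81.7%, Socs1 was the only one of the 10 genes still called (-1.98, adjusted p = 0.03). The log2 fold change was -0.85 for Jak2 (adjusted p = 0.2) and 0.89 for Pim2 (adjusted p = 0.378), 0.18 for Socs2 (adjusted p = 0.8) and -0.0060 for Stat5b (adjusted p = 0.993). In that fit 204 genes in all were called higher and 340 lower. Because genotype took most of the covariate's variance, a call lost in this fit can reflect lost precision as well as neutrophil level. The fit cannot separate these, and the part of the neutrophil level in these results was not tested.

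Around the 10 genes, most other JAK and STAT genes were lower in KO. Of 7 other JAK and STAT genes 5 fell, 0 rose and 2 did not pass, with a median log2 fold change of -0.68. That is 71.4% lower, beside 28.5% of all tested genes. Stat4, which signals for interleukin-12, fell by 1.15 (SE 0.18), Stat2 fell by 0.83 (SE 0.13), and Stat6, which signals for interleukin-4, fell by 0.56 (SE 0.11). Jak3, the partner of the common gamma chain, was at 0.13 (SE 0.086, edgeR adjusted p = 0.253). In the same comparison 17 of 17 neutrophil and 9 of 12 monocyte and macrophage markers fell. The part of such cells in the STAT values was not tested, since the covariate fit above cannot separate it from genotype.

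Most tested receptors that feed the pathway were lower in KO, and the interleukin-7 receptor gene was higher. Of 14 receptor genes 11 were tested, of which 7 fell, 1 rose and 3 did not pass, with a median of -0.98. That is 9.09% higher and 63.6% lower, beside 23.9% and 28.5% of all tested genes. Il7r, the receptor chain that B-cell precursors depend on, was at 300, 306 and 344 CPM in KO and at 155, 234 and 200 CPM in WT. All KO libraries were above all WT libraries, and it rose by 0.69 (SE 0.15, edgeR adjusted p = 0.00844). Csf3r, the G-CSF receptor and itself one of the neutrophil markers, fell by 3.42 (SE 0.63), and its value was -4.08 without KO replicate 4. Of other myeloid receptor genes, Csf2ra fell by 1.38 (SE 0.28) and Csf2rb2 fell by 1.44 (SE 0.24). Csf2rb, the beta chain common to the receptors for GM-CSF, interleukin-3 and interleukin-5, fell by 0.98 (SE 0.13), with 133 ± 11.4 CPM in KO and 262 ± 40.6 CPM in WT. Il2ra, the interleukin-2 receptor alpha chain and a STAT5 target, fell by 2.24 (SE 0.32), with 7.07 ± 1.35 CPM in KO and 33.5 ± 15.2 CPM in WT.

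Of 16 tested other negative regulators 3 were called higher, 5 lower and 8 neither, with a median of 0.024. That is 18.8% higher and 31.2% lower, near the 23.9% and 28.5% of all tested genes. Socs5, a less studied family member, rose by 1.22 (SE 0.14) and the ubiquitin ligase gene Cblb by 0.44 (SE 0.093). The related ligase gene Cbl fell by 0.58 (SE 0.090), and the phosphatase gene Ptpn6, which encodes SHP-1, fell by 0.57 (SE 0.098). Ptprc, which encodes CD45 and thus the B220 form used for the sort, fell by 1.02 (SE 0.22). Pias3 fell by 0.52 (SE 0.14), a call that was lost without KO replicate 3 (adjusted p = 0.0535) and without WT replicate 4 (adjusted p = 0.0521), and over 16 alternatives the adjusted p ran from 0.00167 to 0.733.

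Genes reported elsewhere to be induced by STAT5 included some that rose and some that fell. Of 9 tested, 2 were called higher, 5 lower and 2 neither, with a median of -0.49. That is 22.2% higher and 55.6% lower, beside 23.9% and 28.5% of all tested genes. Ccnd2, encoding cyclin D2, rose by 2.73 (SE 0.47), with 335, 429 and 280 CPM in KO and 38.2, 93.6 and 25.4 CPM in WT. Without WT replicate 3 the Ccnd2 value was 3.46. Myc rose by 0.94 (SE 0.21), with 214, 238 and 227 CPM in KO and 83.6, 156 and 114 CPM in WT. Ccnd3, encoding cyclin D3, fell by 1.21 (SE 0.17), with 591 ± 127 CPM in KO and 1370 ± 128 CPM in WT. Osm, the cytokine oncostatin M, fell by 2.78 (SE 0.50), and its value was -2.07 without WT replicate 1. Pim3, the remaining PIM kinase gene, fell by 0.49 (SE 0.085). Bcl2l1, which encodes BCL-XL, was at 0.046 (SE 0.096, edgeR adjusted p = 0.711). Both genes on the short list of those reported to be repressed by STAT5 fell, Bcl6 by 2.24 (SE 0.44) and Cdkn2c by 1.02 (SE 0.16). None of the 24 named genes around the pathway that passed kept its call with the neutrophil covariate, and 23 of them kept it in every other alternative that was run. In that edgeR fit the log2 fold change grew in size for Il2ra (-2.92, adjusted p = 0.0707), Socs5 (1.40, adjusted p = 0.0807) and Ptpn6 (-0.64, adjusted p = 0.248). It shrank for all the others, slightly for Il7r (0.64, adjusted p = 0.407) and Cblb (0.43, adjusted p = 0.406). The log2 fold change was -0.74 for Osm (adjusted p = 0.729), -0.36 for Csf2rb2 (adjusted p = 0.670), -0.23 for Csf2ra (adjusted p = 0.847) and -0.19 for Bcl6 (adjusted p = 0.918). For Csf3r it was -0.31 (adjusted p = 0.743), which tests nothing, since Csf3r is one of the markers averaged into the covariate.

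**Figure D5:**
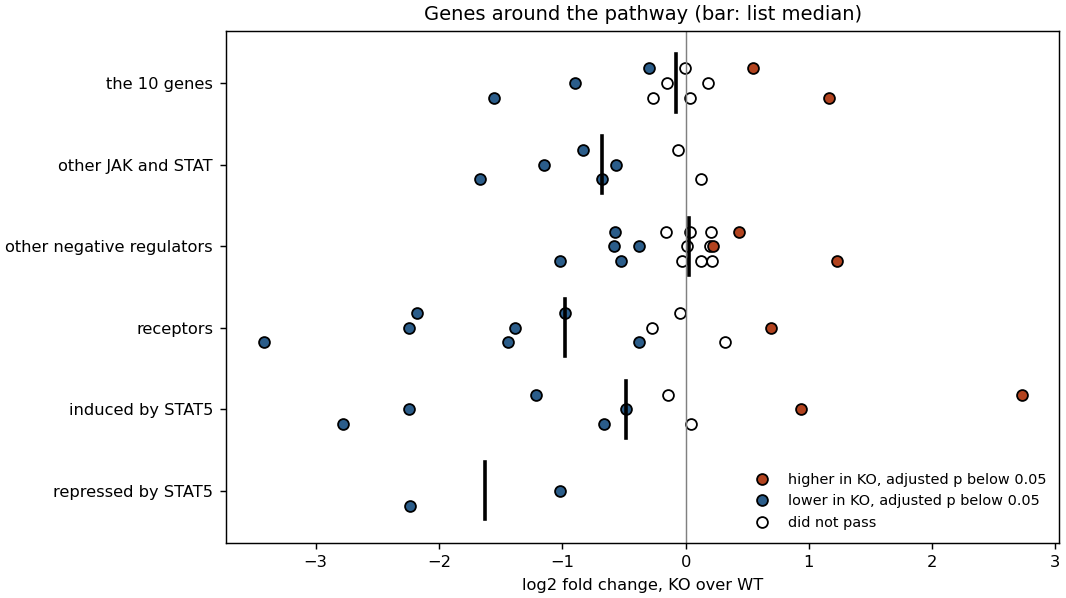
Log2 fold change of KO over WT (x axis) for each tested gene of the 10 genes and of 5 lists around the pathway. Red points passed as higher in KO, blue as lower, open points did not pass, and black bars are list medians, which run from -1.63 for genes repressed by STAT5 to 0.024 for the other negative regulators.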

How the data were processed

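RNA was measured by RNA-seq in 3 KO and 3 WT libraries, grouped by genotype from the labels. The deposited table holds raw counts per gene made by the authors, with exon lengths and gene positions. The reads were mapped to GRCm38 (mm10), per the submitters' processing notes, and no source used here names the aligner, the counter or its strand setting. A second deposited table holds the authors' log2 fold changes and FDR-adjusted p-values. The deposited FPKM and TPM tables were not used. The 10 genes and all gene lists were chosen with earlier results of these data known.

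Counts were tested with edgeR 4.0.16 in R 4.3.3 (TMM factors, quasi-likelihood test, genotype as the only term) on all 14481 genes that passed filterByExpr (minimum count 10, minimum total 15), with Benjamini-Hochberg adjustment over all of them and a threshold of 0.05. The common biological coefficient of variation was 16.8%. In a library 3 counts equal 0.103 to 0.169 CPM, a floor for counting error only. CPM per kb is TMM-scaled CPM divided by the deposited exon length. Ratios were compared by exact permutation over libraries. Alternatives used DESeq2 1.42.0, limma 3.58.1, other scaling and filters, a replicate block, a neutrophil covariate and left-out libraries. Named genes around the pathway were up to 6 per list, by smallest p among called genes whose genotypes did not overlap and whose higher genotype averaged 5 CPM or more, plus Il7r, Stat3, Bcl2l1, Myc, Ccnd2 and Jak3. Of these genes 1 is not reported here. Promoters and the microRNA are from RefSeq (GRCm38.p6), and 3′ UTRs and the 50-base transcript windows from GENCODE M21. Overlaps of gene bodies are from the deposited gene positions. The test was tried on simulated data with known changes.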

Additional observations from a re-analysis of the deposited data

How the results depend on the processing

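Socs1 kept its call in all 16 alternatives (log2 fold change -1.98 to -1.38, edgeR, DESeq2 or limma adjusted p 6.5e-16 to 0.03), and Jak2, Socs2 and Pim2 lost theirs only with the neutrophil covariate. With that covariate 204 genes were called higher and 340 lower, of the 10 genes 0 higher and 1 lower, and Socs3 (-0.31) and Cish (-0.83) turned negative. The Stat5b call was lost in 10 of 16 alternatives, including no filter (adjusted p = 0.14) and DESeq2 (0.0509). With limma-voom quality weights 4772 of 14481 tested genes were called higher and 5039 lower, against 3466 and 4133 in the main fit. Of the 10 genes 4 were then called higher and 3 lower, Cish (0.46) and Socs3 (0.47) being added. Replicate numbers were not taken as pairs, since only 2 are shared and the correlations of deviations were 0.027 and 0.16. In the replicate block KO replicate 2 and WT replicate 1 therefore do not inform the genotype difference, which rests on replicates 3 and 4. With the replicate block 2925 genes were called higher and 3842 lower, of the 10 genes 2 higher and 3 lower, with Pim1 gained, Stat5b lost (-0.16, adjusted p = 0.222), and Cish (-0.038) and Bcl2l1 (-0.031) turned negative. Bcl2l1 was also negative with quality weights (-0.059). Stat5a turned positive with DESeq2 size factors (0.0075), upper-quartile factors (0.054), no filter (0.055), the DESeq2 test (0.018) and quality weights (0.086). Leaving out 1 library at a time gave 2396 to 3848 genes higher and 3218 to 4479 lower, 2 to 3 of the 10 genes higher and 2 to 3 lower, and log2 fold changes of -0.053 to 0.068 for Stat5a, -0.16 to 0.28 for Socs3, -0.037 to 0.60 for Cish and -0.015 to 0.13 for Bcl2l1. In the same fits the log2 ratio differences ran from 0.19 to 0.43 for Stat5a over Stat5b, -0.79 to -0.69 for Jak2 over Jak1, -1.60 to -1.34 for Pim1 over Pim2, -0.44 to -0.057 for Cish over Socs2, and 1.46 to 1.75 for Socs3 over Socs1. The cause was not tested for any of these changes. With 3 libraries a group, differences within the spread of Cish and Socs3 could not be resolved.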
